A study of Homo sapiens with 6 samples.

Results

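The interleukin 6 (IL6) cytokine family was followed in human PC3 cells through 10 genes, taken by symbol from a table of 62700 genes. They comprised the ligands IL6, IL11, LIF and CLCF1, the receptor chains IL6ST, IL6R, LIFR and OSMR, the transcription factor STAT3 and the inhibitor SOCS3. PC3 is an established prostate cancer line that grows without androgen. The control cells carried a short hairpin RNA (shRNA, which lowers transcripts that match it) named shNC and were given the genotype WT. The other cells carried an shRNA titled shTT3 and were given the genotype TTC3 knockdown; TTC3 encodes an E3 ubiquitin ligase. There were 3 libraries a group, made from total RNA without ribosomal RNA, from cells grown in the same medium. The titles give each group 1 shRNA name, but the library names of the knockdown group read shTT1, shTT2 and shTT3, and whether these stand for replicates of 1 shRNA or for different ones is not settled by the labels. With 1 shRNA, lower TTC3 and any other action of that shRNA cannot be told apart. Whether they are separate cultures is not stated in the labels, so the spread behind each p-value may be technical.

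Ligands of the family share the signalling chain IL6ST, also called gp130. IL6 first binds IL6R and IL11 binds IL11RA, whereas LIF, CLCF1 and oncostatin M (OSM) use gp130 paired with LIFR or OSMR. Janus kinases on the receptor tails then phosphorylate STAT3, which enters the nucleus and switches on genes that include SOCS3, and the SOCS3 protein blocks the receptor in turn. In prostate cancer IL6 is known as a growth and survival factor, and in bone IL11 and LIF act on the cells that build and resorb it.

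Library totals were 143246356 to 154832203 counts in control and 144655100 to 155526861 counts in TTC3 shRNA cells. TTC3 itself was at 695.4, 684.2 and 680.3 CPM (the count scaled to library size) in control replicates 1, 2 and 3, and at 227.9, 183.1 and 177.9 CPM in TTC3 shRNA replicates 1, 2 and 3, or 28.6% of the control level. TTC3 shRNA replicate 1 stood apart from replicates 2 and 3 on the second principal component. Level fell with transcript length by 0.17 and 0.21 (log2 per doubling of length) in TTC3 shRNA replicates 2 and 3 and by 0.03 in replicate 1.

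The line was checked against markers. Of 5 epithelial markers, EPCAM and KRT18 rose, by 0.32 and 0.53 on the log2 scale (edgeR's quasi-likelihood test, adjusted p = 0.042 and 0.0392), CDH1 fell by 1.72 (adjusted p = 0.000959) and 2 did not pass, and their summed level was 639 to 680 CPM in control and 655 to 1010 CPM in TTC3 shRNA libraries. KRT18 was at 156.3 CPM or more in every library, and CDH1 went from a mean of 1.971 to 0.5993 CPM. The rises of EPCAM and KRT18 did not pass with library totals alone (0.216 and 0.0635) or with the length trend removed (0.356 and 0.0683), and of the fits with 1 library left out they passed only in that without TTC3 shRNA replicate 1. Of the prostate luminal genes, KLK3 and KLK2 were at 0, and FOLH1 fell by 2.47 (adjusted p = 0.0024). Of 5 leukocyte markers, CD3E was at 0, PTPRC was at 0.2122 CPM or less, CD14 and LYZ fell from 0.89 and 0.5736 CPM on average (adjusted p = 0.00224 and 0.00499), and CD68, also known in lysosomes of other cells, rose from 14.1 ± 2.34 to 28.65 ± 11.41 CPM (SD, n = 3 a group; edgeR adjusted p = 0.0384), with overlapping groups. The CD68 call was lost without any 1 of the control replicates or TTC3 shRNA replicate 2 (0.133, 0.112, 0.0779 and 0.125). The summed level of this list was 13.4 to 18 CPM in control and 16.3 to 38.4 CPM in TTC3 shRNA libraries, mostly CD68. Of 3 endothelial markers, CDH5 was at 0, VWF did not pass and PECAM1 fell by 0.73 (adjusted p = 0.0119; 0.0557 without control replicate 1), with a summed level of 4.69 to 5.64 and 2.63 to 3.52 CPM. Of 5 fibroblast markers COL1A1 rose by 1.99 and LUM fell by 1.03 (adjusted p = 0.0024 and 0.0209), and DCN was at 0.04993 CPM or less. The summed fibroblast level was 19.2 to 20.2 CPM in control and 44 to 102 CPM in TTC3 shRNA libraries, nearly all of it COL1A1. The part of these markers in the results was not tested.

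Of the 10 genes, 9 were tested and STAT3 had no counts. Among the 9, IL11 and IL6R rose and IL6, LIF, CLCF1, LIFR and OSMR fell, while IL6ST and SOCS3 did not pass the test (edgeR's quasi-likelihood test, Benjamini-Hochberg adjusted p below 0.05 over 24325 genes). The test called 33.6% of all tested genes, 15.7% higher and 17.8% lower, so 2 of 9 higher (22.2%) and 5 of 9 lower (55.6%) are to be read against a table in which many genes changed. The groups did not overlap for 8 of the 9 genes, beside 50.3% of all tested genes. The median log2 fold change of the 9 was -0.33, and that of all tested genes was -0.02. Without TTC3 shRNA replicate 1, 2 were higher and 7 lower, where 6674 of 25416 tested genes were higher and 7065 lower. Without control replicate 1, 2 or 3, or TTC3 shRNA replicate 2, 1 was higher and 2 were lower each time. In these fits 4546, 4632, 4633 and 5372 of all tested genes were called. Without TTC3 shRNA replicate 3, 2 were higher and 3 lower, where 6300 of 25353 tested genes were called. The calls for IL6, IL11 and LIF passed in each of these fits.

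**Figure D1:**
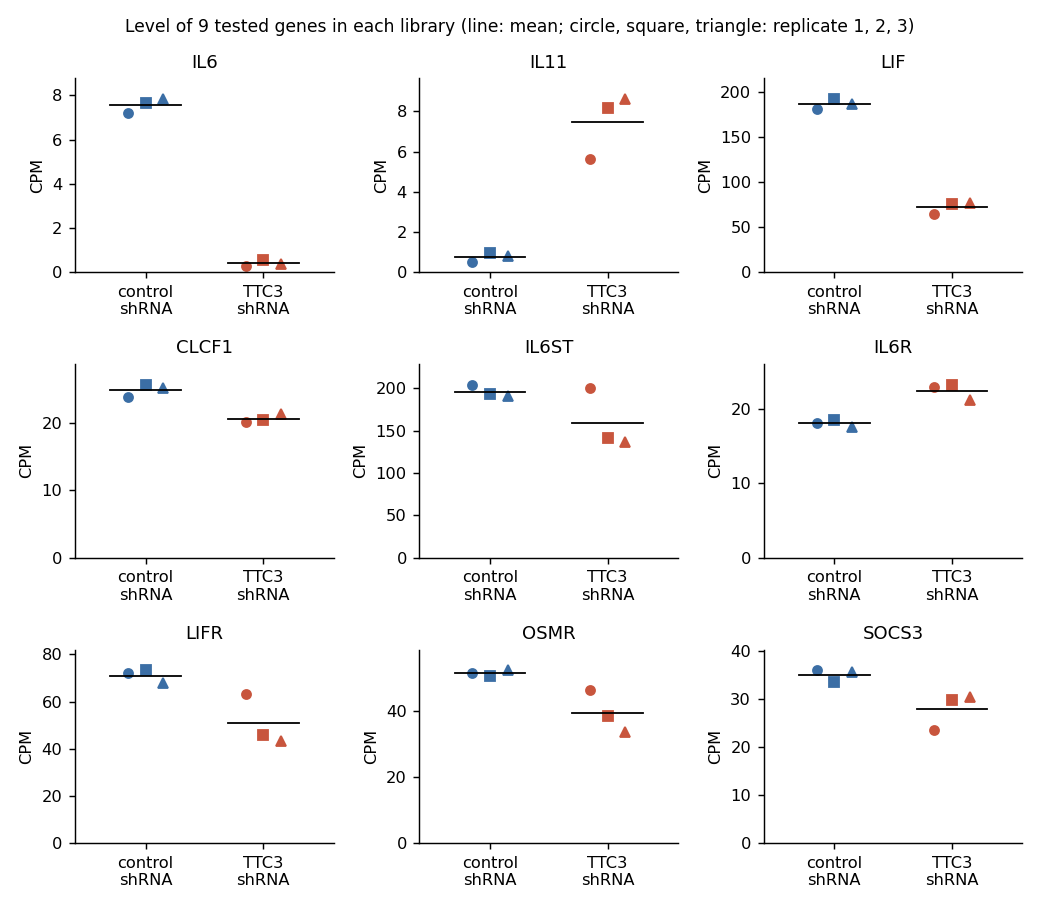
Level of the 9 tested genes in CPM (y axis, from 0) in 3 control shRNA and 3 TTC3 shRNA libraries (x axis), with circles, squares and triangles for replicates 1, 2 and 3 and a line at the mean of each group. IL6 and LIF are lower and IL11 is higher in every TTC3 shRNA library, and the 2 groups overlap for IL6ST alone.

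IL6 (ENSG00000136244.12), the founding ligand of the family, lies on the plus strand of hg38 chromosome 7 (chr7:22725884-22732002). It was at 7.196, 7.65 and 7.826 CPM in control and at 0.2919, 0.5327 and 0.3899 CPM in TTC3 shRNA replicates 1, 2 and 3. The lowest control library held 1153 counts and the highest TTC3 shRNA library 73, so the groups lay far apart. IL6 fell by 4.22 ± 0.226 on the log2 scale (SE, n = 3 libraries a group; adjusted p = 4.04e-05), or 18.7-fold, to 5.36% of control. In bulk RNA, fewer cells that make a transcript and less of it per cell cannot be told apart.

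IL11 (ENSG00000095752.7), which signals through IL11RA and gp130 and is known to promote osteoclast formation, lies on the minus strand of chromosome 19 (chr19:55364389-55370463). It was at 0.5055, 0.9539 and 0.8101 CPM in control and at 5.646, 8.143 and 8.6 CPM in TTC3 shRNA replicates 1, 2 and 3. Every TTC3 shRNA library held at least 851 counts and every control library 154 or fewer. IL11 rose by 3.30 ± 0.281 on the log2 scale (SE, n = 3 a group; adjusted p = 0.00029), or 9.86-fold, the opposite direction to IL6.

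The bases upstream of these oppositely changed ligands are shown from RefSeq (GRCh38.p14), ending before the first annotated exon base in each window. Neither stretch overlaps an annotated exon; that of IL6 lies in an intron of a longer IL6 transcript and within the span of the antisense RNA IL6-AS1. The IL6 stretch (chr7:22726950-22727146, plus strand, 197 bases) carries in capitals a match to the NF-kappaB consensus, and the IL11 stretch (chr19:55370464-55370713, minus strand, 250 bases) carries in capitals a match to the AP-1 motif TGANTCA.
IL6: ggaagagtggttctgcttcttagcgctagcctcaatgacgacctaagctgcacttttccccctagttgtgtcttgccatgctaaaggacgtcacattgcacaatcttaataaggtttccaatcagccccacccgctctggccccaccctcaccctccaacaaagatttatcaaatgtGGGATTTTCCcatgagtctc
IL11: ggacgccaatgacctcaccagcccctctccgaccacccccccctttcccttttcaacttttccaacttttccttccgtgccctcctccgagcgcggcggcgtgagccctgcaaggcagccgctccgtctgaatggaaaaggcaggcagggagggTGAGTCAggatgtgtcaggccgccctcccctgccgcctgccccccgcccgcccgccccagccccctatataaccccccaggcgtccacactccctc
The NF-kappaB match in IL6 begins 73 bases before the RefSeq transcript start, and the AP-1 match in IL11 begins 96 bases before it. No other of the 4 motifs searched matched in the windows of these 2 genes. Both strands were searched, over windows of 250 bases before and 50 after the start. An AP-1 match was found in 7.71% of all 35116 windows, an NF-kappaB match in 11.3%, a STAT match (TTCNNNGAA) in 7.66% and a cyclic AMP response match (TGACGTCA) in 1.85%. A match describes letters, and binding was not measured.

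LIF (ENSG00000128342.5, chr22:30240447-30246851, minus strand), a ligand of LIFR known for keeping embryonic stem cells undifferentiated, was at 181.6, 192.3 and 187.5 CPM in control and at 64.61, 76.03 and 76.64 CPM in TTC3 shRNA replicates 1, 2 and 3. All TTC3 shRNA libraries were below all controls. LIF fell by 1.37 ± 0.0829 on the log2 scale (SE, n = 3 a group; adjusted p = 6.37e-05), to 38.7% of control. LIF had far more counts than IL6, 28014 to 31051 in a control library, and remained the most abundant of the 4 ligands per kilobase in both groups.

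CLCF1 (ENSG00000175505.11, chr11:67364168-67374177, minus strand), a ligand that signals through CNTFR with LIFR and gp130, was at 23.73, 25.58 and 25.09 CPM in control and at 20.14, 20.34 and 21.28 CPM in TTC3 shRNA replicates 1, 2 and 3. The groups did not overlap, and the change was small: CLCF1 fell by 0.27 ± 0.0671 on the log2 scale (SE, n = 3 a group; adjusted p = 0.0212), to 83% of control. That call was lost without control replicate 1 (adjusted p = 0.0597), control replicate 2 (0.105), control replicate 3 (0.0954) or TTC3 shRNA replicate 2 (0.0812).

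IL11 was set against IL6 and LIF within each library, a ratio that library scaling does not touch. The log2 ratio of IL11 to IL6 counts was -3.83, -3 and -3.27 in control and 4.27, 3.93 and 4.46 in TTC3 shRNA replicates 1, 2 and 3. IL6 counts therefore exceeded IL11 counts in all 3 control libraries and IL11 counts exceeded IL6 counts in all 3 TTC3 shRNA libraries. The mean log2 ratio moved from -3.37 ± 0.422 to 4.22 ± 0.268 (SD, n = 3), a difference of 7.59 ± 0.289 (SE; exact two-sided permutation p = 0.1, the smallest that 3 against 3 libraries can give). The log2 ratio of IL11 to LIF was -8.49, -7.66 and -7.85 in control and -3.52, -3.22 and -3.16 in TTC3 shRNA replicates 1, 2 and 3. LIF counts stayed above IL11 counts in every library. The IL11 to LIF ratio differed by 4.70 ± 0.274 on the log2 scale (SE, n = 3; exact two-sided permutation p = 0.1). With the 2 ratios compared, both adjusted p-values were 0.1.

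Levels of different genes were compared as CPM per kilobase of transcript. In control cells the order was LIF (48.1 ± 1.55), LIFR (16.7 ± 0.675), CLCF1 (13.7 ± 0.639), SOCS3 (12.8 ± 0.482), OSMR (9.89 ± 0.163), IL6 (6.62 ± 0.103), IL6R (3.5 ± 0.209) and IL11 (0.389 ± 0.133; SD, n = 3 each). Of neighbours in that order, CLCF1 and SOCS3 overlapped, at 13 to 14.1 and 12.2 to 13.1 CPM per kilobase, and no others did. In TTC3 shRNA cells LIF still led among these genes, which leave out IL6ST, at 18.5 ± 1.72 CPM per kilobase. There IL11 was at 3.49 ± 0.797 and IL6 was last at 0.377 ± 0.115 (SD, n = 3). LIFR, at 10.2 to 14.8 CPM per kilobase, overlapped there with CLCF1 (11.2 to 12.1) and SOCS3 (8.57 to 11.1), and SOCS3 overlapped with OSMR (6.52 to 8.94). IL6ST had no firm place, because transcripts with an annotated length held only 31.5% to 90.7% of its count. Those transcripts gave 32, 19.2 and 13.4 CPM per kilobase in control replicates 1, 2 and 3, below LIF. In TTC3 shRNA replicates 1, 2 and 3 they gave 45.4, 23.5 and 17.2, beside 16.5, 19.5 and 19.5 for LIF. Divided by its longest transcript, its gene count gives a lower limit of 21.6 CPM per kilobase in control and 17.6 in TTC3 shRNA cells, above LIFR in both groups.

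**Figure D2:**
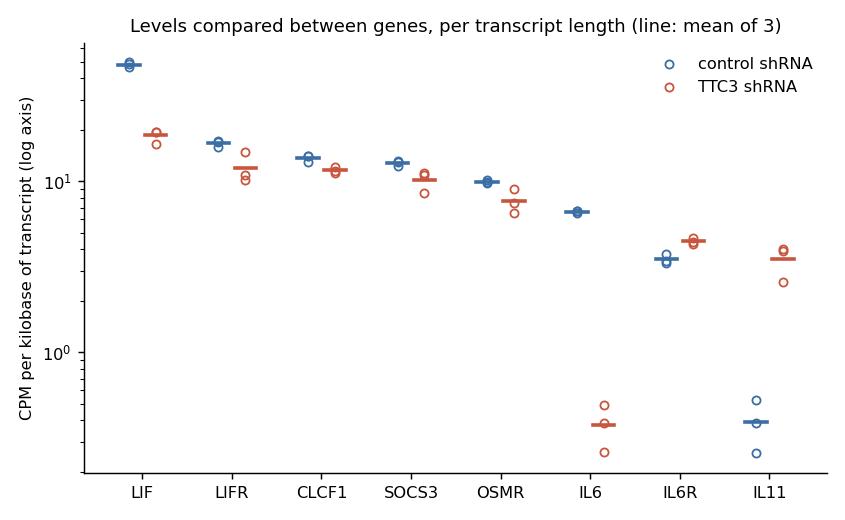
Level in CPM per kilobase of transcript (y axis, log scale) of 8 genes of the family (x axis) in control shRNA (blue) and TTC3 shRNA (red) libraries, with a circle for each library and a line at the mean of 3. IL6ST is not drawn. Of the 8 genes drawn, LIF is highest in both groups. IL6 (6.62 to 0.377) lies above IL11 (0.389 to 3.49) in control and below it in TTC3 shRNA libraries. The mean of IL6R (3.5 to 4.45) lies above that of IL11 in both groups.

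The shared chain IL6ST (ENSG00000134352.21, chr5:55935095-55994993, minus strand) was at 203.9, 193.3 and 190.7 CPM in control and at 199.9, 140.7 and 136.2 CPM in TTC3 shRNA replicates 1, 2 and 3. Replicate 1 lay among the controls and replicates 2 and 3 lay below them. The log2 fold change was -0.30 ± 0.147 (SE, n = 3 a group; adjusted p = 0.155), and without TTC3 shRNA replicate 1 it was -0.48 (adjusted p = 3.46e-05). A similar order of replicates was seen in LIFR (ENSG00000113594.10, chr5:38474963-38608354, minus strand), the partner chain for LIF. LIFR was at 71.97, 73.21 and 67.73 CPM in control and at 63.01, 45.98 and 43.37 CPM in TTC3 shRNA replicates 1, 2 and 3, with no overlap. LIFR fell by 0.48 ± 0.14 on the log2 scale (SE, n = 3 a group; adjusted p = 0.036). OSMR (ENSG00000145623.13, chr5:38845858-38945596, plus strand), the second partner chain for OSM, was at 51.46, 50.48 and 52.14 CPM in control and at 46.23, 38.34 and 33.64 CPM in TTC3 shRNA replicates 1, 2 and 3. OSMR fell by 0.38 ± 0.114 on the log2 scale (SE, n = 3 a group; adjusted p = 0.0393), again with no overlap and with replicate 1 nearest to the controls. These 3 receptor genes have long transcripts, 4253 to 5997 bases on average, and the libraries with the steeper decline with length were those with the lower values. With that length trend removed LIFR and OSMR still passed, at log2 fold changes of -0.46 and -0.32 (adjusted p = 0.0257 and 0.0265), and IL6ST again did not (-0.23, adjusted p = 0.146). IL6R, at 5522 bases, has a transcript of like length and lay higher in all 3 TTC3 shRNA libraries. Its log2 fold change was 0.31, and 0.39 with the length trend removed. Whether transcript length bears on the changes of these receptor genes was not tested. The LIFR call was lost without control replicates 1, 2 or 3 (adjusted p = 0.11, 0.115 and 0.087) and without TTC3 shRNA replicates 2 or 3 (0.125 and 0.0934). The OSMR call was lost without the same libraries (adjusted p = 0.117, 0.107, 0.123, 0.125 and 0.0795), and both calls were lost with no filter on low counts (0.0683 for LIFR and 0.0734 for OSMR).

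IL6R (ENSG00000160712.13, chr1:154405193-154469450, plus strand), the chain that binds IL6 itself, went the other way. It was at 18.08, 18.53 and 17.62 CPM in control and at 22.93, 23.25 and 21.18 CPM in TTC3 shRNA replicates 1, 2 and 3, so every TTC3 shRNA library was above every control. IL6R rose by 0.31 ± 0.0705 on the log2 scale (SE, n = 3 a group; adjusted p = 0.0148), to 124% of control, while its ligand IL6 fell. The rise depended on the scaling, since with library totals alone it was 0.19 (adjusted p = 0.131), where the median of all genes shifted to -0.15. It also did not pass without control replicates 1, 2 or 3 (adjusted p = 0.0713, 0.0587 and 0.076) or TTC3 shRNA replicate 2 (0.061).

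**Figure D3:**
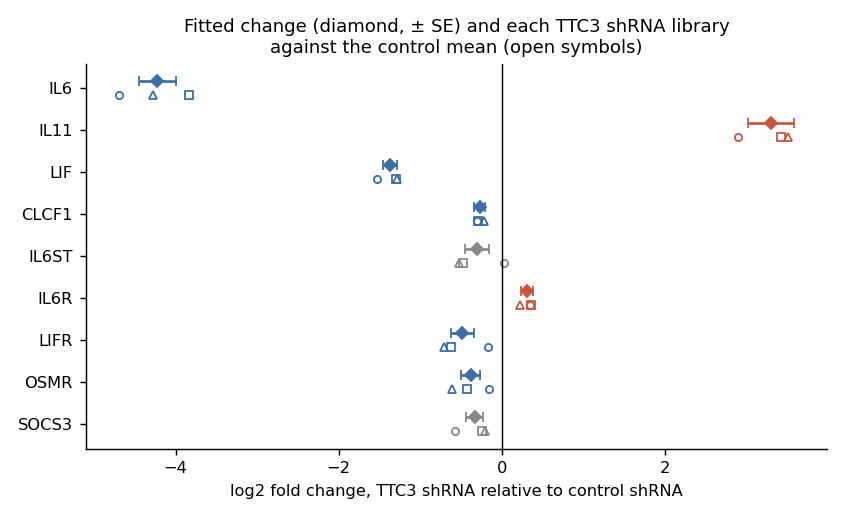
Log2 fold change, TTC3 shRNA relative to control shRNA (x axis), of the 9 tested genes (y axis): diamonds with bars give the fitted value ± SE and open circles, squares and triangles TTC3 shRNA replicates 1, 2 and 3 against the control mean. Red marks genes that rose, blue genes that fell and grey genes that did not pass; replicate 1 lies nearest to 0 for LIFR and OSMR and, at 0.03, for IL6ST.

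STAT3 (ENSG00000168610.16, chr17:42313324-42388568, minus strand), the main transcription factor of the pathway, had 0 counts in all 6 libraries. Out of 901624122 counts in all, 0 counts allow a level of up to 0.00333 CPM, for counting error only. No change of STAT3 could be measured. Its neighbours, looked at after this value was seen, were at 0 as well. From DHX58 to CAVIN1 (chr17:42101404-42423517, 322 kilobases), 12 protein-coding genes in a row, among them STAT5B and STAT5A and the housekeeping genes KAT2A and RAB5C, had 0 counts in every library. The 17 annotated genes of any type in that span held 1 count in total over 6 libraries. The nearest gene on one side, C17orf113, held 82 to 241 counts per library and that on the other, ATP6V0A1, 14 to 36. PC3 is known from other work to carry a homozygous deletion on the long arm of chromosome 17 that includes STAT3. DNA was not measured here, and the table holds 11 runs of at least 12 protein-coding genes at 0, this one included.

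**Figure D4:**
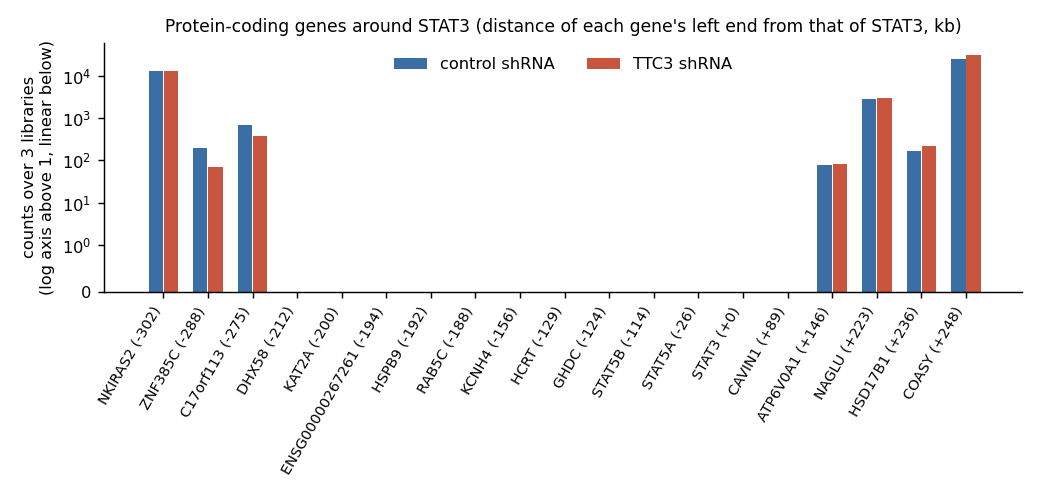
Counts summed over 3 control shRNA (blue) and 3 TTC3 shRNA (red) libraries (y axis, log scale above 1 and linear below) for protein-coding genes around STAT3, in order along the chromosome, with the distance of each gene's left end from that of STAT3 in kilobases in brackets (x axis). The 12 genes from DHX58 to CAVIN1 are at 0 in both groups, and the genes on either side have counts in both.

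SOCS3 (ENSG00000184557.4, chr17:78356778-78360077, minus strand), the feedback inhibitor that STAT3 is known to induce, was present even so. It was at 35.89, 33.45 and 35.56 CPM in control and at 23.44, 29.64 and 30.36 CPM in TTC3 shRNA replicates 1, 2 and 3. The groups did not overlap, with replicate 1 the lowest. The log2 fold change was -0.33 ± 0.107 (SE, n = 3 a group; adjusted p = 0.0515), just short of the threshold. Without TTC3 shRNA replicate 1 it was -0.20 and passed (adjusted p = 0.00555), and it passed with library totals alone (-0.46, adjusted p = 0.00885), DESeq2 (adjusted p = 0.0259), limma-voom (0.0499), a filter of 50 counts in 3 libraries (0.0409) and the length trend removed (0.0203).

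Of 33 listed transcripts of the 10 genes, 22 were tested, and 1 rose and 3 fell, where 3.99% of all tested transcripts were called. The main IL11 transcript (ENST00000264563.7) held 69, 111 and 109 counts in control and 819, 1018 and 1158 counts in TTC3 shRNA replicates 1, 2 and 3, and rose by 3.47 ± 0.321 on the log2 scale (SE; adjusted p = 0.00994). The IL6 transcript with the most counts (ENST00000258743.10) held 707, 984 and 859 counts in control and 0, 35 and 16 counts in TTC3 shRNA replicates 1, 2 and 3. Its log2 fold change of -5.50 ± 1.41 did not pass (adjusted p = 0.104), although the groups lay apart. Those that fell were the long LIF transcript (ENST00000249075.4, log2 fold change -1.39 ± 0.0857, adjusted p = 0.00384), a short LIF transcript (ENST00000403987.3, -2.14 ± 0.371, adjusted p = 0.0445) and the IL6 transcript with a retained intron (ENST00000485300.1, -2.76 ± 0.476, adjusted p = 0.0436). These splits are uncertain, because the isoforms of a gene overlap. Without control replicate 1, 2 or 3, or TTC3 shRNA replicate 2, none rose and 1 fell each time, and without TTC3 shRNA replicate 3, 1 rose and 1 fell. All 5 STAT3 transcripts listed were at 0.

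Around IL11, within 250 kilobases of its start, 12 of 30 tested neighbours rose and 2 fell, beside 15.7% higher and 17.8% lower of all tested genes, with a median log2 fold change of 0.44. DNAAF3, a dynein assembly factor, rose by 0.90 ± 0.141 and the receptor phosphatase PTPRH fell by 0.64 ± 0.0683 on the log2 scale (SE; adjusted p = 0.00362 and 0.000724). These changes were far smaller than that of IL11, and the calls rested on the libraries kept: without control replicates 1, 2 or 3, 2, 2 and 3 neighbours rose, and without TTC3 shRNA replicates 1, 2 or 3, 21, 4 and 4 rose; 1 fell in each, but 2 without TTC3 shRNA replicate 1. In the fit without TTC3 shRNA replicate 1, 6674 of all 25416 tested genes rose and 7065 fell. At an adjusted p below 0.01, 2 neighbours rose and 1 fell, and against a fold of 1.5 none passed in either direction. With library totals alone or the length trend removed 9 rose and 3 fell.

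Around IL6, where IL6 itself fell, 4 of 7 tested neighbours rose and none fell, beside the same shares of all genes; with DESeq2, with limma-voom and at an unadjusted p below 0.05, 0 fell as well. The count of rises came to 2 with library totals alone, to 1 with the length trend removed, where the median was 0.20 in place of 0.69, to 1 at an adjusted p below 0.01 and to 0 against a fold of 1.5. Without control replicates 1, 2 or 3, 2, 2 and 1 of them rose, and without TTC3 shRNA replicates 2 or 3, 1 and 2 did. The non-coding RNA host SNHG26 rose by 0.69 ± 0.0887 (adjusted p = 0.00167; 0.0552 with the length trend removed). IL6-AS1, an antisense RNA over the start of IL6, was at 0.247 CPM in control and 0.408 CPM in TTC3 shRNA cells and did not pass (0.73 ± 0.244, adjusted p = 0.057).

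Around LIF, 2 of 18 tested neighbours rose and 5 fell, again beside 15.7% and 17.8% of all genes, among them the antisense RNA LIF-AS2 (-1.20 ± 0.162, adjusted p = 0.00197) and OSM, both lower. With library totals alone none rose and 8 fell, with limma-voom or the length trend removed 1 rose and 6 fell, with the replicate block none rose and 5 fell, at an adjusted p below 0.01 none rose and 4 fell, and against a fold of 1.5 none rose and 3 fell. Without control replicates 1, 2 or 3 or TTC3 shRNA replicate 2 none of the LIF neighbours rose and 4, 4, 4 and 5 fell. Without TTC3 shRNA replicate 1, 3 rose and 8 fell, where 6674 of all 25416 tested genes rose and 7065 fell. Without TTC3 shRNA replicate 3, 1 rose and 6 fell. Whether strand was used in counting is not given in the sources used here, so reads of a gene and its antisense partner may be mixed.

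Protein-coding genes with at least 1 CPM were ranked by how closely their 6 log2 values, centred on their mean, followed those of a ligand (Euclidean distance over the 6 libraries, as a description). Nearest to IL6 were CXCL5 (0.312), TFF2 (0.43) and the neutrophil chemokine CXCL8 (0.504). CXCL8 went from 198.3 ± 2.236 to 10.41 ± 0.5392 CPM (SD, n = 3). Nearest to IL11 were the phosphodiesterase PDE4A (0.507), the phosphatase PTPN5 (0.683) and CD70 (0.714), and PDE4A went from 1.481 ± 0.4437 to 16.63 ± 0.7995 CPM (SD, n = 3). Nearest to LIF were the transcription factor KLF4 (0.0831), PPFIA4 (0.107) and the ephrin EFNA1 (0.12).

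The rest of the pathway was read from 10 lists holding 91 genes, of which 75 were tested. Of these 13 rose (17.3%) and 33 fell (44%), beside 15.7% and 17.8% of all tested genes. The count of each list below is to be read beside the same 2 shares. In the whole table large falls outnumbered large rises, with 2080 genes called lower and 711 called higher by at least 2-fold. In every fit with 1 library left out, 8 of the 13 and 28 of the 33 still passed. The count that rose was 8 without control replicate 1 and 20 without TTC3 shRNA replicate 1, where 1835 and 6674 of all tested genes rose.

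Among the other ligands, 1 of 6 tested rose, 2 fell and 3 did not pass, with a median log2 fold change of -0.42. OSM, which lies beside LIF, had 49, 28 and 39 counts in control and 0 in each TTC3 shRNA library. By library totals alone, it was at least 38.7-fold lower against a floor of 3 counts over the group. IL31 went from 53 to 3 counts over 3 libraries, a ratio of 17.7 (95% exact interval 5.73 to 88.5, counting error only), but did not pass without control replicates 1, 2 or 3 (adjusted p = 0.0674, 0.11 and 0.0681) or TTC3 shRNA replicate 2 (0.0896). CTF1, or cardiotrophin 1, rose by 0.70 ± 0.22 on the log2 scale (adjusted p = 0.0474) and did not pass without control replicates 1 or 3 (0.156 and 0.152) or TTC3 shRNA replicates 2 or 3 (0.111 and 0.13), with library totals alone (0.0755), with no filter (0.0808) or with the length trend removed (0.0919). Of the other receptors, 2 of 4 rose, 1 fell and 1 did not pass. IL31RA rose by 1.17 ± 0.155 and IL27RA by 0.70 ± 0.111 (adjusted p = 0.00185 and 0.00396). In contrast CNTFR, which binds CLCF1, had 48 counts in control and 0 in TTC3 shRNA libraries, at least 16-fold lower by library totals alone. IL11RA, the receptor of IL11, was at 3.52, 3.896 and 4.747 CPM in control and at 3.656, 5.626 and 6.692 CPM in TTC3 shRNA replicates 1, 2 and 3. These groups overlapped and the change of 0.39 ± 0.234 did not pass (adjusted p = 0.235), though it did without TTC3 shRNA replicate 1 (0.0103).

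Of 11 kinases, STATs and adaptors, 9 were tested, and 3 rose, 2 fell and 4 did not pass, with a median of 0.03. STAT5A and STAT5B were at 0. None of the kinases that gp130 uses passed, with log2 fold changes of 0.03 for JAK1 (adjusted p = 0.745), -0.24 for JAK2 (adjusted p = 0.063) and -0.15 for TYK2 (adjusted p = 0.263), JAK1 and JAK2 being named after their values were seen. JAK2 passed as lower without TTC3 shRNA replicate 1 (0.00171) and with library totals alone (0.0308). It also passed with the DESeq2 Wald test (0.0499) and with a filter of 50 counts in 3 libraries (0.0465). TYK2 passed as lower with library totals alone (0.0372). The adaptors GAB2, GRB2 and SHC1 rose by 0.40 ± 0.0683, 0.32 ± 0.0632 and 0.28 ± 0.0531 (adjusted p = 0.00533, 0.00903 and 0.00732). GRB2 and SHC1 did not pass without control replicate 1 (0.0547 and 0.0515), GRB2 without control replicate 3 (0.0507) or SHC1 without control replicate 2 (0.0518), and with library totals alone none of the 3 passed (0.051, 0.0517 and 0.0879). GAB1, also named afterwards, fell by 0.55 ± 0.138 (adjusted p = 0.0219), but without any control replicate or TTC3 shRNA replicates 2 or 3 its adjusted p was 0.0773, 0.0747, 0.0725, 0.0842 and 0.0602.

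Among SOCS proteins, PIAS proteins and phosphatases, which restrain the pathway, 3 of 12 tested rose, 1 fell and 8 did not pass (median 0.04). SOCS2 rose by 0.70 ± 0.068, PIAS3, known as an inhibitor of STAT3, by 0.37 ± 0.0643 and SOCS1 by 1.20 ± 0.312 on the log2 scale (adjusted p = 0.000489, 0.00529 and 0.0246). SOCS1 did not pass without control replicates 1, 2 or 3 (0.0524, 0.0918 and 0.0827) or TTC3 shRNA replicates 2 or 3 (0.0803 and 0.0724). PIAS1 fell by 0.74 ± 0.149 (adjusted p = 0.00983). Without TTC3 shRNA replicate 1, 5 of this list rose and 4 fell, where 6674 of all 25416 tested genes rose and 7065 fell. Of 3 genes linked to the shedding of receptors from the cell surface, ADAM10 (-0.76 ± 0.141) and ERAP1 (-0.54 ± 0.088) fell (adjusted p = 0.00694 and 0.0041). ADAM17, which cuts IL6R, did not pass (0.17 ± 0.0717, adjusted p = 0.107), except as higher without TTC3 shRNA replicate 1 (0.0179) and with the length trend removed (0.0288).

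Of 16 genes known in other cells as STAT3 targets, 2 rose, 9 fell and 5 did not pass, with a median of -0.59, in cells with no STAT3 counts in either group. Beside them, 15.7% of all tested genes rose and 17.8% fell. The kinase gene PIM1 was at 59.57, 58.63 and 56.68 CPM in control and at 12.06, 14.11 and 13.77 CPM in TTC3 shRNA replicates 1, 2 and 3, and fell by 2.13 ± 0.0809 on the log2 scale (adjusted p = 1.07e-05). IRF1, an interferon response factor (-2.08 ± 0.102), FOS (-1.92 ± 0.159), the angiogenic factor VEGFA (-1.27 ± 0.075) and HIF1A (-0.70 ± 0.134) fell too (adjusted p = 2.73e-05, 0.000263, 5.9e-05 and 0.00797). The genes that rose were the survival gene BIRC5 (0.76 ± 0.0742, adjusted p = 0.000517), named after its value was seen, and the cell cycle gene CCND1 (0.26 ± 0.0777, adjusted p = 0.0417). CCND1 did not pass without control replicates 1, 2 or 3 (0.13, 0.14 and 0.139), TTC3 shRNA replicates 2 or 3 (0.107 and 0.0842) or with library totals alone (0.197).

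Of 16 acute phase proteins, which IL6 induces in liver, 6 were tested at low levels, and 1 rose, 4 fell and 1 did not pass (median -1.79). The shares of all tested genes, for this list and the bone factors below, were 15.7% higher and 17.8% lower. SAA2 went from 57, 53 and 52 counts in control to 0, 3 and 2 counts in TTC3 shRNA replicates 1, 2 and 3, and HP from 117 to 3 counts over 3 libraries, a ratio of 39 (95% exact interval 13 to 192, counting error only); both have near-identical copies, so their counts are uncertain. LRG1 (-2.11 ± 0.359) and C3 (-1.46 ± 0.355) fell (adjusted p = 0.00498 and 0.0194), C3 not without control replicates 1 or 2 (0.0647 and 0.0761) or TTC3 shRNA replicates 2 or 3 (0.0617 and 0.0585). SERPINA1, a protease inhibitor, rose by 0.89 ± 0.105 (adjusted p = 0.00117). Of 9 factors by which tumour cells act on bone, 7 were tested, and 1 rose and 6 fell (median -1.33), all in every fit with 1 library left out. PTHLH, which drives bone resorption, was at 103.4, 104.9 and 102.7 CPM in control and at 174.9, 187.7 and 191 CPM in TTC3 shRNA replicates 1, 2 and 3, and rose by 0.83 ± 0.061 on the log2 scale (adjusted p = 0.000153). IL11 and PTHLH rose while LIF, CSF2 (-4.62 ± 0.414), CSF1 (-1.91 ± 0.149), ADAMTS1 (-1.33 ± 0.0545), the collagenase MMP1 (-1.07 ± 0.0554) and CCN2 (-0.50 ± 0.0889) fell.

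The transcription factors whose motifs are shown above were listed by subunit. Of 9 AP-1 subunits and relatives, none rose, 5 fell and 4 did not pass (median -0.82). The shares of all tested genes, for this list and the NF-kappaB list below, were 15.7% higher and 17.8% lower. ATF3 (log2 fold change -2.35 ± 0.115), JUNB (-1.44 ± 0.205) and FOSL2 (-0.55 ± 0.0684) fell beside FOS (adjusted p = 2.73e-05, 0.00249 and 0.00144), whereas the most abundant one by CPM, FOSL1, was at 1047, 1055 and 1070 CPM in control and at 1014, 1072 and 1041 CPM in TTC3 shRNA replicates 1, 2 and 3. FOSL1 did not pass (adjusted p = 0.814), except as lower with the length trend removed (0.0257). JUN did not pass either (0.15 ± 0.146, adjusted p = 0.465), and without TTC3 shRNA replicate 1 it passed as higher (0.000708), as did JUND. Of 5 NF-kappaB subunits, none rose, REL (-1.07 ± 0.134), RELB (-0.94 ± 0.187) and NFKB2 (-0.55 ± 0.152) fell (adjusted p = 0.00146, 0.00924 and 0.0297), and RELA (0.05 ± 0.0646) and NFKB1 (-0.12 ± 0.0543) did not pass (adjusted p = 0.613 and 0.141). In these 2 lists 0 genes rose with edgeR at an unadjusted p below 0.05, with DESeq2 or with limma-voom. NFKB2 did not pass without control replicates 1, 2 or 3 (0.0861, 0.0972 and 0.0867) or TTC3 shRNA replicate 2 (0.0608), and NFKB1 passed as lower without TTC3 shRNA replicate 1 (0.0323), with library totals alone (0.0224) and with the length trend removed (0.0271). Promoter windows were matched for 8 of the 10 genes, 11 windows in all. Beside those of IL11 and IL6, an AP-1 match lay in the windows of IL6R and OSMR, an NF-kappaB match in that of IL6ST and a STAT match in 2 of 3 windows of LIFR, and no motif was found in those of SOCS3 and STAT3. Of the genes with an AP-1 match, IL11 and IL6R rose and OSMR fell. The matches of IL6R and OSMR begin 37 and 3 bases after the transcript start, whereas that of IL11 lies before it. Whether a match bears on a change was not tested.

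**Figure D5:**
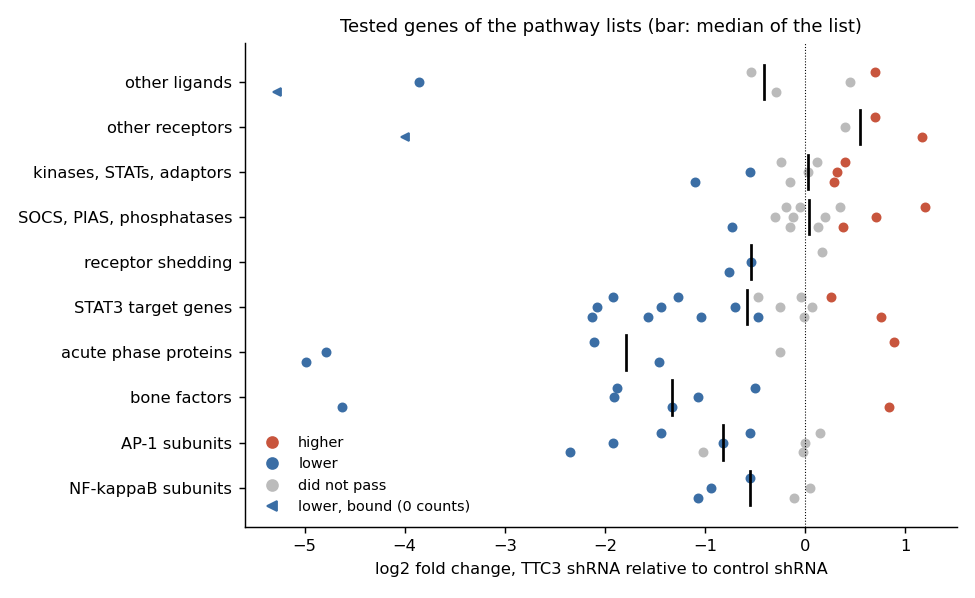
Log2 fold change, TTC3 shRNA relative to control shRNA (x axis), of the tested genes of 10 pathway lists (y axis), red where higher, blue where lower and grey where the test was not passed, with a bar at the median of each list; triangles mark OSM and CNTFR, drawn at their bound because the TTC3 shRNA libraries held 0 counts. Medians lie between -1.79 for acute phase proteins and 0.54 for the other receptors.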

How the data were processed

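Estimated counts per gene and per transcript were deposited for 6 libraries as whole numbers without library scaling. Per the submitters' processing notes, the authors used hg38 with StringTie, STAR and Trim Galore. Their versions and settings, and the annotation, are not given in the sources used. Groups and replicate numbers came from the titles. Positions and transcript lengths came from GENCODE 29 on GRCh38, the same assembly.

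The estimated counts needed no rounding. edgeR 4.0.16 in R 4.3.3 was used (TMM, filterByExpr, glmQLFit, glmQLFTest) without a block, with Benjamini-Hochberg adjustment over 24325 genes or 53805 transcripts and a threshold of 0.05. The SE is the log2 fold change divided by the square root of F. The procedure was tested on simulated data. Alternatives used DESeq2 1.42.0, limma-voom (limma 3.58.1), other scalings, filters and thresholds, a length correction, and each library left out.

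The 10 genes, the lists and the tests were chosen with earlier results of these data known. Named by rule were TTC3, the 10 genes, up to 4 genes per list by adjusted p and 2 by expression, neighbours within 250 kilobases, and the 3 genes nearest to each of IL6, IL11 and LIF; others are marked as named after their values were seen. A comparison of protein sequences was planned and not run, and some genes that the rule gives are left out of the text.

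Library totals of 143246356 to 155526861 leave the spread between libraries as the main limit for abundant genes, with counting error added for rare ones. Intervals are exact at 95%, and a floor is 3 counts. Floors, fold bounds and ratios of counts use library totals without TMM scaling, unlike CPM and the fitted fold changes. PCR reads without molecular identifiers are not independent molecules, so intervals and floors cover counting error only.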

Additional observations from a re-analysis of the deposited data

How the results depend on the processing

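The falls of TTC3 (-1.93 to -1.73), IL6 (-4.50 to -4.02) and LIF (-1.50 to -1.28) and the rise of IL11 (3.08 to 3.50, all log2) passed in all 17 alternatives each. Both IL11 ratios kept their direction in 8 alternatives each (7.36 to 7.78 to IL6, 4.46 to 4.87 to LIF; exact p = 0.1 throughout). The counts moved more. Members that rose (2) came to 1 with library totals alone, an adjusted p below 0.01 or a test against a fold of 1.5, and to 1 to 2 with 1 library left out. Members that fell (5) came to 3 with no filter, 2 at an adjusted p below 0.01, 2 against a fold of 1.5, and 2 to 7 with 1 library left out. Pathway genes that rose (13) came to 8 with library totals alone, 3 against a fold of 1.5 and 8 to 20 with 1 library left out, and those that fell (33) to 19 against a fold of 1.5. A fit with 1 library fewer rests on fewer samples; other causes were not tested. Same-numbered libraries showed little common deviation (correlations 0.0451, 0.0395 and -0.00582). Such values cannot show whether the libraries were made in pairs, and the labels do not say. With the replicate block, 2 members rose and 4 fell (CLCF1 adjusted p = 0.0513), member transcripts came to 0 rises (1 without the block) and 0 falls (3), and 6929 genes were called in place of 8165; TTC3, IL6, IL11 and LIF passed. With 1 library left out, member transcripts came to 0 to 1 rises and 1 to 4 falls. With library totals alone, 2518 genes rose and 5356 fell, against 3827 and 4338. All genes called were 13739 without TTC3 shRNA replicate 1, 4546 to 4633 without a control replicate, 5372 without TTC3 shRNA replicate 2, 4082 at an adjusted p below 0.01 and 2033 against a fold of 1.5. Depth limits OSM, CNTFR, IL31 and HP, with 0 to 3 counts in the TTC3 shRNA group.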
